A study of Mus musculus with 8 samples.

Results

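The proteasome is the protease complex that degrades ubiquitin-tagged proteins, and its genes are described here in preSC cells, cultured mouse cells used as a precancerous stage of small cell lung cancer. Members were taken by gene symbol: every symbol starting with Psm, followed by a letter from a to g and a digit, except the immunoproteasome subunits Psmb8, Psmb9 and Psmb10. This gave 46 of the 23284 genes in the files, of which 45 encode subunits, assembly factors or regulators of the proteasome. The remaining match, Psmc3ip, encodes a partner of the meiotic recombinase and is counted with no class. All libraries share the same origin: mice of the strains 129/SvJ and C57BL/6 with a Chga-GFP reporter, which marks neuroendocrine cells, and the conditional alleles Rblox/lox, p53lox/lox and p130lox. A polyclonal population was transduced with a guide RNA against Max (genotype Max KO) or with a control guide (genotype control), then selected with puromycin and received no further treatment. Total RNA from each of 4 Max KO and 4 control libraries was sequenced. Neither population was cloned, and the share of edited cells was not measured here.

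The complex has a barrel-shaped core particle of alpha and beta rings, in which the beta subunits Psmb5, Psmb6 and Psmb7 carry the peptide-cutting sites. A regulatory particle caps the core: its base holds the ring of ATPases (Psmc genes) that unfold substrates, and its lid holds Psmd14, the enzyme that removes ubiquitin chains. Core and base are put together by dedicated chaperones, the Psme genes encode alternative caps, and Psmf1 encodes an inhibitor of the core. MAX pairs with MYC family proteins on the E-box, and the transcription factor NFE2L1 raises proteasome genes through the antioxidant response element when proteasome activity is short.

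Promoter sequence was available from RefSeq (GRCm38.p6) for 37 of the 45 proteasome genes, in 40 windows that run from 250 bases before to 50 bases after a gene start. The E-box CACGTG lay in 3 of these windows (7.5%, against 7.15% of all 32851 windows), those of Psma4, Psme3 and Psmd9. The antioxidant response element core TGACNNNGC, read on both strands, lay in 6 (15%, against 12.4%): Psmb5, Psmb6, Psmc6, Psmd12, Psme4 and Psmd9. These shares describe letters in a window and not binding. The windows below are those with an E-box, the site of MAX, and those of the catalytic genes Psmb5 and Psmb6, with the matching letters in capitals. Psma4 lies at chr9:54950609-54950908 (+ strand), Psme3 at chr11:101315963-101316262 (+ strand) and Psmd9 at chr5:123227940-123228239 (+ strand). Psmb5 lies at chr14:54617946-54618245 (- strand) and Psmb6 at chr11:70525107-70525406 (+ strand).
Psma4: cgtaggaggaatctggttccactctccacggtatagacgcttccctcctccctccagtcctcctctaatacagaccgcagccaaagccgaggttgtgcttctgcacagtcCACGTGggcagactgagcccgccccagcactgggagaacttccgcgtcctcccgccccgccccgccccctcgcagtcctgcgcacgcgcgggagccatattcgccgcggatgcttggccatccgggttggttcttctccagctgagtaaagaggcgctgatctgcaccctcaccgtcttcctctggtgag
Psme3: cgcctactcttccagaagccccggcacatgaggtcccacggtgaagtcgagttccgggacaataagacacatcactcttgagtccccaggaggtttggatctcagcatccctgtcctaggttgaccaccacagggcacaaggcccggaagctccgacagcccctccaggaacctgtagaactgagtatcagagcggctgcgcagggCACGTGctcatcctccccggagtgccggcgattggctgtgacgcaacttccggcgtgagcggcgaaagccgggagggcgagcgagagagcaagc
Psmd9: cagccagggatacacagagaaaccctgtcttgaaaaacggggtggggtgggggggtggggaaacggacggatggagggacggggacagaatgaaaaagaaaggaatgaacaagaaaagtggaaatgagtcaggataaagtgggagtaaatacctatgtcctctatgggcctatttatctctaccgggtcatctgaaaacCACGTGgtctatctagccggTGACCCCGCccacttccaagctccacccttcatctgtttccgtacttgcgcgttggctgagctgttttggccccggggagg
Psmb5: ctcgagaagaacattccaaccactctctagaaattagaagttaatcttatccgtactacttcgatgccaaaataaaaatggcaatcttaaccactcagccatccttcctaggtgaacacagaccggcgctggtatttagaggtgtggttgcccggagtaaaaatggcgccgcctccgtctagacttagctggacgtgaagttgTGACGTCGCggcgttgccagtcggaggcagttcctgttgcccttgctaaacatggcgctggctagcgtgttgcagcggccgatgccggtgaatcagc
Psmb6: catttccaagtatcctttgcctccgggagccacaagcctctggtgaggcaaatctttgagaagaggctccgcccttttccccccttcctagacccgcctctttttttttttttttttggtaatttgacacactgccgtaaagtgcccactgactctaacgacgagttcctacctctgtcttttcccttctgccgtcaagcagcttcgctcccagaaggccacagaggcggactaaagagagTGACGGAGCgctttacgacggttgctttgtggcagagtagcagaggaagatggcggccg

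The E-box starts 140 bases before the gene start in Psma4, 44 bases before it in Psme3 and 51 bases before it in Psmd9, where an antioxidant response element core follows 31 bases before the start. In Psmb5 and Psmb6 the element core starts 47 and 9 bases before the gene start. The transcript values of these 5 genes are given with their classes below. The windows are on another build than the mm9 genome that the submitters' processing notes name, and no coordinate of the count data was used.

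Depth was 13711278 to 19804949 reads counted in genes, so that 1 read stood for 0.0505 to 0.0729 CPM (counts scaled to a common library size). The targeted gene, Max, was at 42.3, 42.3, 59.1 and 68.0 CPM in Max KO libraries 1 to 4 and at 65.5, 70.2, 75.2 and 61.9 CPM in controls 1 to 4 (-0.37 on the log2 scale, adjusted p = 0.0955, edgeR quasi-likelihood test). Max KO library 4 lay above controls 1 and 4, the other Max KO libraries lay below every control, and the difference passed only without Max KO library 4 (-0.52, adjusted p = 0.0228). A guide that disrupts a reading frame need not lower the transcript, so Max checks the labels only in part. All 10 neuroendocrine markers were tested, and they summed to 6699 to 7422 CPM in the Max KO and 5993 to 8102 CPM in the control libraries. The summed haematopoietic markers reached at most 6.00 CPM and those of other lung epithelium at most 9.81 CPM. The endothelial list summed to 595 to 702 CPM in the Max KO and 258 to 422 CPM in the control libraries, nearly all of it from Vwf, with Emcn at 0 and Cdh5 at no more than 0.22 CPM. The fibroblast list summed to 49.3 to 65.8 CPM against 25.2 to 45.1 CPM, nearly all of it from Dcn, with Lum at 0. Of the 2 fibroblast markers tested, Dcn rose and Pdgfra fell (-2.37, adjusted p = 0.00423, edgeR), the latter at no more than 2.27 CPM. Col1a1 and Thy1, too low to be tested, were at no more than 0.190 and 0.0669 CPM in the Max KO libraries and at least 0.219 and 0.406 CPM in the controls. The part of these lists in the results below was not tested. In bulk RNA, fewer cells with a transcript and less transcript per cell cannot be told apart. Controls 3 and 4 stood apart from controls 1 and 2 in the share of reads outside exons (23.3% and 23.4% against 18.5% and 18.6%; Max KO 20.5% to 21.5%), so results are also given for each pair of controls.

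No proteasome gene passed the threshold. Of the 45 genes, 44 passed the filter on low counts, and 0 of these 44 rose or fell in the Max KO libraries at an adjusted p under 0.05 in edgeR's quasi-likelihood test with Benjamini-Hochberg adjustment over all 13358 tested genes, of which 23.1% were called. Of the tested genes at an average log2 CPM of 4 or more, the range in which every tested member but Psmb11 lay, 21.1% were called. At an unadjusted p under 0.05 there was 1 member, Psmd3 (35.5% of all tested genes). DESeq2 called 1 member, again Psmd3 (25.7% of all tested genes), and limma-voom called 0 (22.9%). Log2 fold changes of the members ran from -0.21 to 0.20 with a median of 0.021, beside a median of -0.0036 over all tested genes. Upper-quartile scaling moved the members' median to -0.026 and that of all genes to -0.050. A change larger than the largest of any member was found in 44.2% of all tested genes, and in 34% of those at an average log2 CPM of 4 or more.

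**Figure D1:**
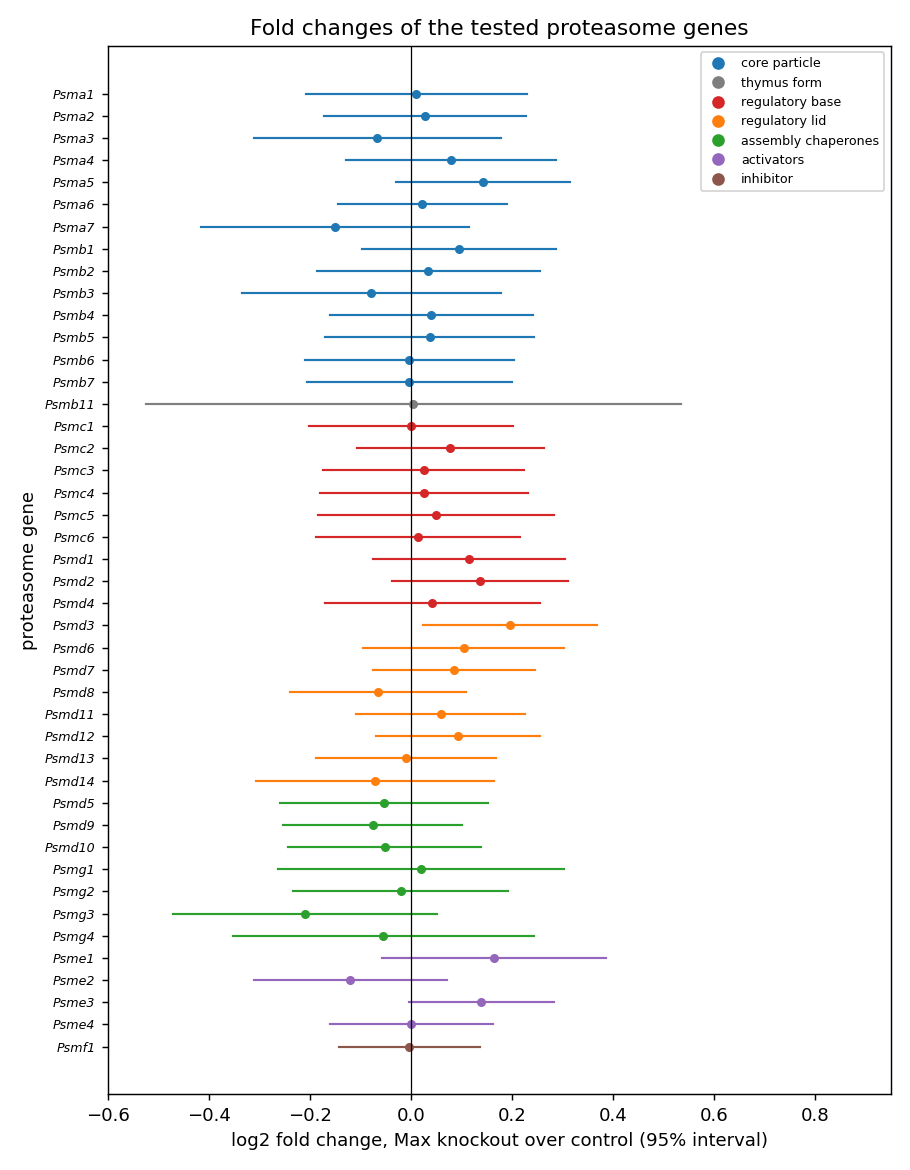
Log2 fold change of each tested proteasome gene (x axis, Max KO over control) with its 95% interval, ordered and coloured by class. All 44 points lie between -0.21 and 0.20, and the interval excludes 0 only for Psmd3, whose p is unadjusted there.

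The precision of these values bounds what could have been missed. The 95% intervals of the 14 core and 17 regulatory subunits together ran from -0.42 to 0.37 on the log2 scale, and that of Psmb11, at only 2.29 CPM on average, ran from -0.53 to 0.54. Summed over the 45 genes, the proteasome took 0.737% ± 0.0265 of the reads in the Max KO and 0.736% ± 0.0571 in the control libraries (SD, n = 4 each). Whether replicate libraries were grown as separate cultures is not stated, and the p-values therefore cover only the differences among these libraries, possibly technical ones. Counts of Psma3, Psma4, Psma5, Psmb3, Psmb5, Psmc1, Psmd2 and Psmd11 are less certain, because at least 1 annotated pseudogene matches 200 or more bases of their transcripts at 95% identity or better; none of these pseudogenes is listed in the count files. The same holds for Psme2, which matches the gene Psme2b at 99.37% over 794 bases, with Psme2b absent from the count files. Psma3 also matches Gm609 (5 reads in all libraries) and Psmd11 also matches A730017L22Rik (2513 reads), which are both in the count files. Exons of 10 members (Psma4, Psma5, Psmb5, Psmb7, Psmc3, Psmd1, Psmd3, Psmd13, Psme1 and Psmg3) overlap another annotated gene in GENCODE M21, and their counts are also less certain, since the counting is not said to use strand.

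The core subunits, which form the proteolytic barrel, did not separate the groups. Of the 14, 9 had a fold change above 0 and 5 below it, with a median of 0.025. Psmb5, the chymotrypsin-like subunit, was at 149, 125, 143 and 137 CPM in Max KO libraries 1 to 4 and at 129, 138, 157 and 117 CPM in controls 1 to 4. Control 3 held the highest and control 4 the lowest value, and all 4 Max KO values lay between them (log2 fold change 0.037, 95% interval -0.17 to 0.24). Psmb6, the caspase-like subunit, was at 276, 239.8, 265 and 259 CPM in the Max KO and 246, 270.1, 302 and 225 CPM in the control libraries, with a difference of -0.0032 (95% interval -0.21 to 0.20). Psmb7, the trypsin-like subunit, was at 239.7, 224, 260.0 and 230.3 CPM in the Max KO and 240.2, 246, 269 and 201 CPM in the control libraries, with a difference of -0.0034 (95% interval -0.21 to 0.20). For all 3 catalytic genes, controls 3 and 4 again bracketed the Max KO libraries. Of the structural beta subunits, Psmb1 had the largest difference (0.10, adjusted p = 0.482), at 265, 242, 269 and 242 CPM in the Max KO and 247, 255, 249.7 and 201 CPM in the control libraries, where control 4 stood low. Psmb2, Psmb3 and Psmb4 had log2 fold changes of 0.034, -0.079 and 0.040.

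In the alpha ring, whose subunits form the gate of the barrel, Psma7 had the largest negative difference (-0.15, 95% interval -0.42 to 0.12). It was at 449.6, 397, 439 and 386 CPM in Max KO libraries 1 to 4 and at 499, 517, 495 and 345 CPM in controls 1 to 4. The first 3 controls lay above every Max KO library and control 4 lay below all of them. Without control 4, when 27.8% of all tested genes were called, Psma7 fell by edgeR's test (-0.27, adjusted p = 0.0256), and with only controls 3 and 4 kept the difference was -0.011 (adjusted p = 0.966). Psma5 had the largest positive difference of the ring (0.14, adjusted p = 0.221), at 123, 121, 128 and 111 CPM against 112, 108, 119.9 and 98.9 CPM, and its groups overlapped. Psma4, which has an E-box in its window, was at 204, 182, 201 and 175 CPM in the Max KO and 178, 187, 204 and 152 CPM in the control libraries (0.080, adjusted p = 0.597). Psma8, the testis-specific alpha subunit, had 0 reads in every library, which allows up to 0.151 to 0.219 CPM per library (3 counts, counting error only). Psmb11, the thymus-specific beta subunit, was at 2.77, 1.59, 1.76 and 3.00 CPM in the Max KO and 2.01, 2.59, 2.56 and 2.02 CPM in the control libraries and did not separate the groups.

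The regulatory particle held the member with the smallest p, the lid scaffold gene Psmd3. Psmd3 was at 318, 284, 294 and 325 CPM in Max KO libraries 1 to 4 and at 259, 265, 292 and 249 CPM in controls 1 to 4. Control 3 lay above Max KO library 2, so the groups overlapped, and the difference of 0.20 (SE 0.079) did not pass edgeR's threshold (adjusted p = 0.0955). It did pass without control 3 (0.24, adjusted p = 0.0252), when Psmd1 (0.20) and Psmd2 (0.20) passed too and 27.5% of all tested genes were called. With only controls 3 and 4 kept, the difference of Psmd3 was 0.17 (adjusted p = 0.271). Psmd2, the large scaffold of the base, was at 404, 405, 426 and 429.6 CPM in the Max KO and 363, 376, 425 and 349.9 CPM in the control libraries, with Max KO values above all controls but control 3 (0.14, adjusted p = 0.247). Psmd1, the other scaffold of the base, was at 264, 239.8, 248 and 244 CPM in the Max KO and 216, 226, 269 and 209.7 CPM in the control libraries, and control 3 again held the highest value (0.11, adjusted p = 0.385).

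The 6 ATPase genes of the base had log2 fold changes from -3.58e-05 for Psmc1 to 0.078 for Psmc2, none past edgeR's threshold. Psmc2 was at 185, 173, 188 and 189 CPM in the Max KO and 171, 182, 194 and 149.7 CPM in the control libraries, which again spanned the Max KO values. Psmc1 was at 253, 239, 255 and 247 CPM in Max KO libraries 1 to 4 and at 237, 257, 288 and 212 CPM in controls 1 to 4. Its 4 Max KO values fell within the range of the controls, and its 95% interval ran from -0.20 to 0.20. In the lid, Psmd14, the deubiquitinase, was at 99.8, 97.3, 98.4 and 99.7 CPM in the Max KO and 97.5, 98.5, 131 and 88.2 CPM in the control libraries. Its Max KO libraries were nearly level, whereas control 3 stood well above every other library (-0.071, adjusted p = 0.687). Psmd4, a ubiquitin receptor, was at 155, 137, 154 and 155 CPM in the Max KO and 144, 155, 165 and 119.7 CPM in the control libraries (0.042), with its groups overlapping. Over the whole regulatory particle, 13 of 17 fold changes were above 0 and 4 below, with a median of 0.050, beside 49.3% above 0 over all tested genes. The median was 0.0030 with upper-quartile scaling and -0.0097 without control 4.

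Core and regulatory particle did not part from each other between the groups. The mean log2 CPM of the 14 core subunits less that of the 17 regulatory subunits was 0.198, 0.145, 0.211 and 0.0846 in Max KO libraries 1 to 4 and 0.248, 0.264, 0.144 and 0.130 in controls 1 to 4. Controls 1 and 2 lay above all Max KO libraries, controls 3 and 4 lay among them, and the groups overlapped. The group means were 0.16 ± 0.058 and 0.20 ± 0.070 (SD, n = 4 each), a difference of -0.037 that is smaller than either SD. Since the subunits were chosen with results known, this difference was given no test. With only controls 1 and 2 kept it was -0.097, and with only controls 3 and 4 kept it turned to 0.023.

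**Figure D2:**
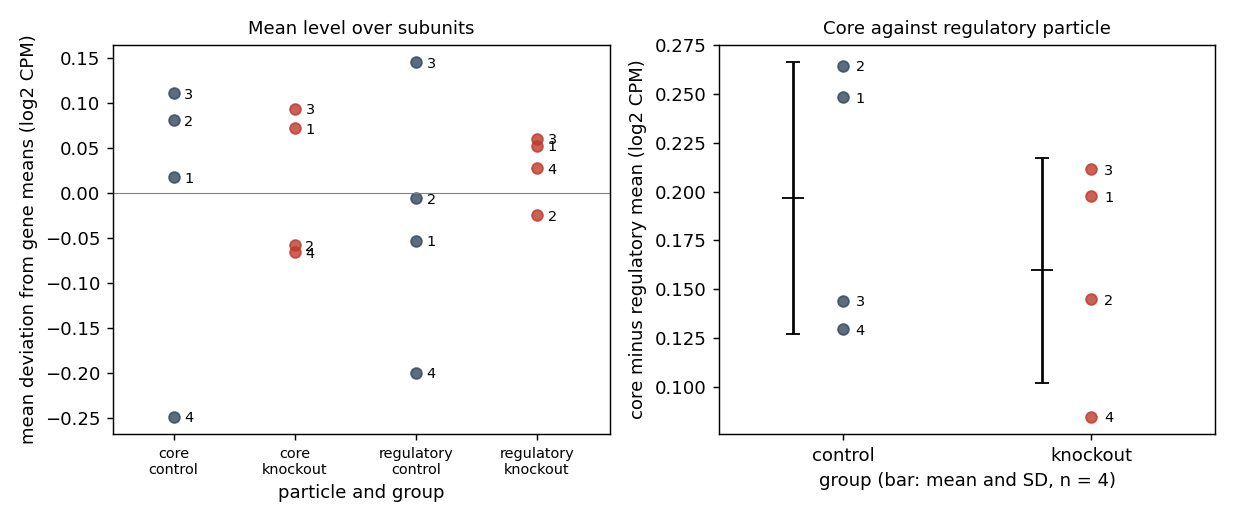
Left, mean deviation of core and regulatory subunits from each gene's own mean (log2 CPM), 1 point per library with its replicate number. Right, core minus regulatory mean (log2 CPM) with mean and SD (n = 4 each); the difference between the group means, -0.037, is smaller than either SD, and controls 1 and 2 lie above controls 3 and 4.

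The members varied together across the controls more than between the groups. Relative to each gene's mean, the members were on average at -0.0040, 0.038, 0.10 and -0.18 on the log2 scale in controls 1 to 4 and at 0.062, -0.058, 0.052 and -0.010 in Max KO libraries 1 to 4. Of the 44 tested members, 32 had their lowest value of all 8 libraries in control 4 (72.7%, beside 12.4% of all tested genes), and 20 had their highest value in control 3 (45.5%, beside 20.9%). The median SD within a group was 0.083 (log2 CPM) in the Max KO and 0.18 in the control libraries, beside 0.11 and 0.18 over all tested genes. Over the tested genes at an average log2 CPM of 4 or more, the range of every tested member but Psmb11, it was 0.090 and 0.15. The SD was larger in the controls for 42 of 44 members (95.5%), with Psmb11 and Psme4 as the exceptions. This held for 74.7% of all tested genes and 77.9% of those at an average log2 CPM of 4 or more. The share of reads outside exons was 23.3% in control 3 and 23.4% in control 4, and its part in this spread was not tested.

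**Figure D3:**
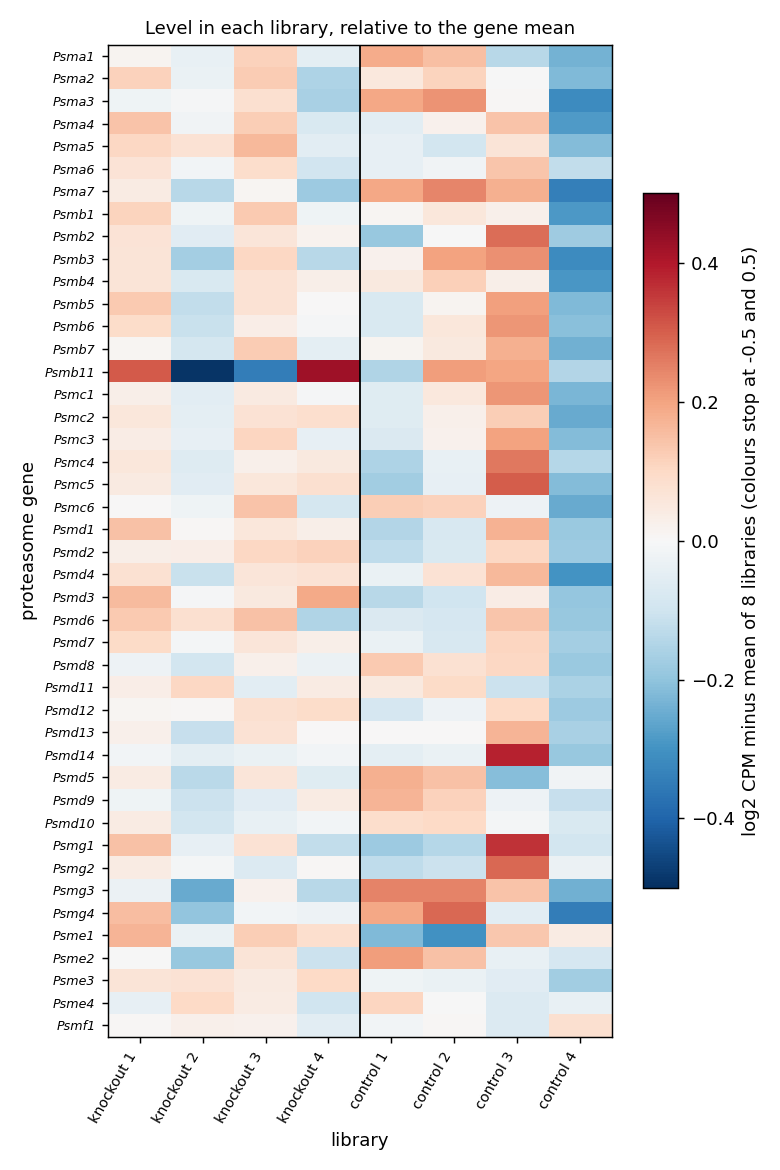
Log2 CPM of each tested proteasome gene (rows) in each library (columns), less the gene's mean over 8 libraries; red is above and blue below the mean, and colours stop at -0.5 and 0.5. Control 4 is the lowest library for 32 of 44 genes and control 3 the highest for 20, while the 4 Max KO columns are paler.

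With only controls 1 and 2 kept, 8 of the 44 members passed edgeR's threshold (18.2%), beside 44.6% of all tested genes in that fit. The 4 that rose (22% of all tested genes rose) were Psmd1 (0.17), Psmd2 (0.17), Psmd3 (0.22) and the activator gene Psme1 (0.35, adjusted p = 0.000908). The 4 that fell (22.6% of all tested genes fell) were Psma3 (-0.24), Psma7 (-0.28), the activator gene Psme2 (-0.24, adjusted p = 0.0172) and the core assembly chaperone gene Psmg3 (-0.35). With only controls 3 and 4 kept, 0 members passed (20.7% of all tested genes). In the fit with controls 1 and 2, 2 of the 14 core subunits fell and 0 rose, and 3 of the 17 regulatory subunits rose and 0 fell. A difference between the particles was not tested there.

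Among the activators, which cap the core in place of the regulatory particle, the partners Psme1 and Psme2 had fold changes of opposite sign. Their products form a ring that is induced by interferon. Psme1 was at 320.3, 278, 310.3 and 302 CPM in Max KO libraries 1 to 4 and at 244, 231, 313 and 293 CPM in controls 1 to 4. Controls 1 and 2 were the lowest of all libraries, while controls 3 and 4 lay among the Max KO values (0.16, adjusted p = 0.277). Psme2 was at 119, 105, 125 and 111 CPM in the Max KO and 138, 132, 116 and 113 CPM in the control libraries, and here controls 1 and 2 were the highest (-0.12, adjusted p = 0.362). With only controls 3 and 4 kept, the differences were -0.0068 for Psme1 and -0.0019 for Psme2.

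Psme3, which encodes the nuclear activator, was the only one of the 44 tested members whose groups did not overlap, where 26.4% of all tested genes did not. It was at 241, 243, 238 and 247 CPM in the Max KO libraries, all above the controls at 227, 225, 222 and 205 CPM, but the difference was small and not past edgeR's threshold (0.14, SE 0.066, adjusted p = 0.155). Its window holds an E-box. Psme4, the large nuclear cap, was at 79.5, 87.7, 84.1 and 76.4 CPM in the Max KO and 88.2, 81.6, 78.0 and 79.6 CPM in the control libraries (0.00074). The inhibitor gene Psmf1 was at 105, 106, 106 and 101 CPM in the Max KO and 103, 105, 99.8 and 111 CPM in the control libraries, with the narrowest 95% interval of the members (-0.14 to 0.14).

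Of the 7 assembly chaperone genes, 6 had a log2 fold change below 0, beside 6768 of all 13358 tested genes. None passed edgeR's threshold or had an unadjusted p under 0.05. With only controls 3 and 4 kept, Psmd5 (0.083), Psmd9 (0.027), Psmd10 (0.012) and Psmg4 (0.18) were above 0. Psmg1 (-0.13), Psmg2 (-0.15) and Psmg3 (-0.060) were below 0 there. With all libraries kept, Psmg3 had the largest negative difference of all members (-0.21, SE 0.12, adjusted p = 0.239). It was at 19.4, 16.7, 20.1 and 18.0 CPM in Max KO libraries 1 to 4 and at 23.6, 23.6, 21.9 and 16.8 CPM in controls 1 to 4, where control 4 alone lay among the Max KO values. Psmg3 fell in edgeR's test when control 4 was left out (-0.31, adjusted p = 0.0333). Psmd9, a chaperone of the base with both motifs in its window, was at 54.3, 51.2, 53.0 and 56.7 CPM in the Max KO and 62.0, 59.7, 54.2 and 50.9 CPM in the control libraries (-0.076, adjusted p = 0.550). Psmd5 (-0.053) and Psmd10 (-0.052), the other chaperones of the base, and Psmg1 (0.020), Psmg2 (-0.020) and Psmg4 (-0.055) of the core did not pass the threshold either. Psmc3ip, which matched the symbol rule but was given no class, was at 45.1, 41.1, 46.3 and 45.7 CPM in the Max KO and 42.9, 45.8, 50.1 and 46.5 CPM in the control libraries (-0.055).

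Levels were compared between genes per kilobase of exon, with lengths from GENCODE M21, which is not the authors' annotation. The median over both groups was 170 CPM per kilobase for the core and 87.0 for the regulatory subunits, against 21.3 for the assembly chaperones. Psma7 was highest at 374 ± 52.1 CPM per kilobase, followed by Psmb6 at 326 ± 30.0 and Psmb3 at 315 ± 40.6 (SD over 8 libraries). Psma7 differed from Psmb6, and Psmb6 from Psmb3, by less than the SD of the higher gene. These genes were all lowest in control 4, so the SD holds variation that they share. It does not measure the error of a difference between genes, and their order was not tested. Psma2, at 56.7 CPM per kilobase, was the lowest core subunit, and Psmd11, at 36.7, the lowest regulatory subunit. The order of Psmb1 depends on the length used, since it was at 71.9 by all annotated exons and at 125 by its longest transcript. Psme1, at 258 CPM per kilobase, lay among the core subunits, above Psme2 at 123 and Psme4 at 12.6.

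**Figure D4:**
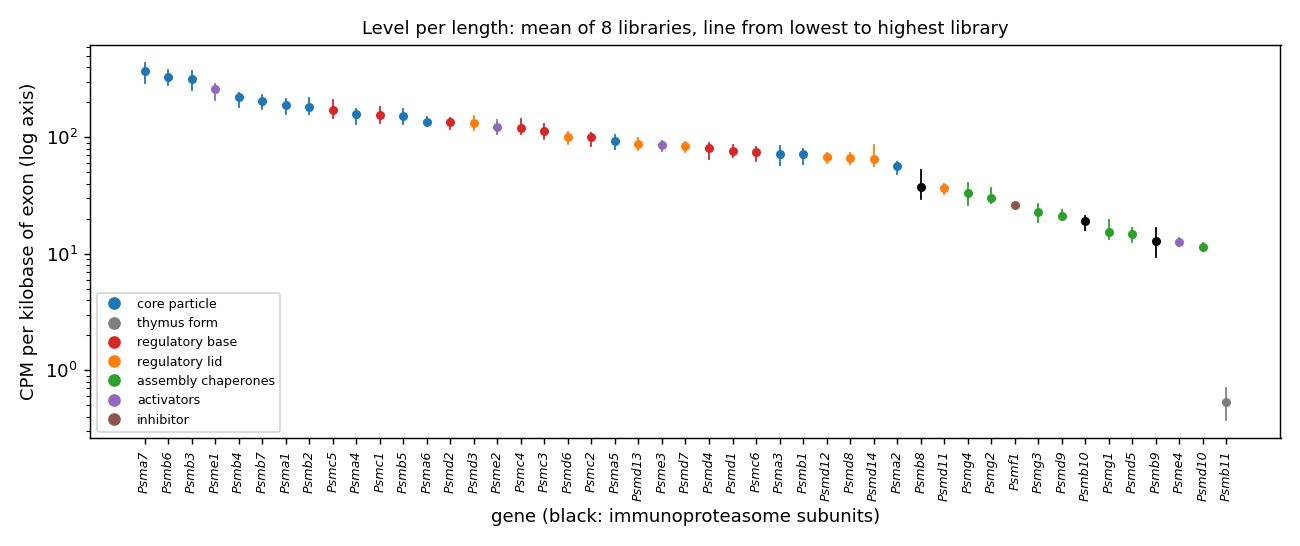
Level of each tested member and of the 3 immunoproteasome genes in CPM per kilobase of exon (log axis), as the mean of 8 libraries with a line from the lowest to the highest library. Core subunits reach 374 (Psma7), chaperones lie from 11.5 to 33.4, and Psmb11 is at 0.539.

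The immunoproteasome genes left out of the member list included 2 that fell, Psmb9 and Psmb8 (12.2% of all tested genes fell). The counts of both are less certain, because exons of Psmb9 overlap Tap1 and those of Psmb8 overlap Gm20496. Psmb9, whose product replaces Psmb6, was at 14.4, 12.8, 15.2 and 13.4 CPM in Max KO libraries 1 to 4 and at 22.5, 22.4, 18.6 and 18.9 CPM in controls 1 to 4, with no overlap, and fell by 0.56 on the log2 scale (adjusted p = 0.00259, edgeR). Psmb8, which replaces Psmb5, was at 55.3, 48.4, 50.5 and 55.3 CPM in the Max KO and 85.8, 78.2, 55.9 and 62.1 CPM in the control libraries and fell by 0.43 (adjusted p = 0.0276). Controls 3 and 4 lay just above the highest Max KO values of Psmb8, and with only these controls kept its difference was -0.18 (adjusted p = 0.216). Its call ended without Max KO library 1, 2 or 3 or control 1 or 2 (adjusted p up to 0.0893), while that of Psmb9 held in 8 of 8 fits that left out 1 library. Psmb10, which replaces Psmb7, was at 26.5, 23.8, 25.9 and 25.5 CPM in the Max KO and 27.5, 24.5, 27.0 and 20.9 CPM in the control libraries and did not pass the threshold (0.027, adjusted p = 0.877). Per kilobase, Psmb9 stood at 3.17% ± 0.155 of Psmb6 in the Max KO and 4.72% ± 0.758 in the control libraries, and Psmb8 at 20.9% ± 1.23 and 29.3% ± 7.10 of Psmb5 (SD, n = 4 each). For Psmb8, control 3 at 19.7% lay within the Max KO range of 19.5% to 22.4%, so the groups overlapped on this share. Psmb10 stood at 9.46% ± 0.457 and 9.26% ± 0.602 of Psmb7. A test of the difference between these genes and their partners was not made.

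Genes that control the level of the proteasome or bring substrates to it were read from 4 lists, chosen with earlier results of these data known. In the transcription control list, 2 of 7 genes rose and none fell (10.9% of all tested genes rose and 12.2% fell), with a median log2 fold change of 0.084. Nfe2l1, the transcription factor that induces proteasome subunits, was at 197, 208, 202 and 208 CPM in Max KO libraries 1 to 4 and at 172, 183, 164 and 166 CPM in controls 1 to 4. Every Max KO library lay above every control (0.25, SE 0.066, adjusted p = 0.0176, edgeR). Ddi2, the protease that cleaves and activates NFE2L1, was at 25.9, 34.2, 30.4 and 26.9 CPM against 24.0, 22.5, 19.3 and 23.4 CPM, also without overlap (0.39, SE 0.11, adjusted p = 0.0216, edgeR). The call of Nfe2l1 ended without Max KO library 2 or 3 and that of Ddi2 without Max KO library 2 or 3 or control 2 (adjusted p up to 0.0589 and 0.0772). Both passed with only controls 1 and 2 kept (0.20 and 0.33) and with only controls 3 and 4 kept (0.30 and 0.45). Of the rest, Bach1, a repressor at the same element, differed by 0.12 (adjusted p = 0.339, edgeR). Nfe2l2, the related oxidative stress factor, differed by 0.084 (0.615) and Ngly1, an enzyme that processes NFE2L1, by 0.061 (0.690). Nfe2l3, at no more than 1.23 CPM in any library, differed by -0.59 (0.225).

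In the list of shuttles and the p97 segregase, 2 of 14 tested genes rose and 1 fell, with a median of 0.11. Over all tested genes, 10.9% rose and 12.2% fell. Vcp, which encodes p97, the ATPase that extracts ubiquitin-tagged proteins, was at 759, 731, 756 and 779 CPM in Max KO libraries 1 to 4 and at 640.0, 645, 671 and 589 CPM in controls 1 to 4, without overlap (0.25, adjusted p = 0.0316, edgeR). The shuttle gene Ubqln2 was at 313, 328, 304 and 321 CPM in the Max KO and 248, 249.7, 242 and 299.8 CPM in the control libraries (0.28, adjusted p = 0.0272), with control 4 close below the Max KO values. Both calls ended without Max KO library 1, 2, 3 or 4 or control 1 or 2 (adjusted p up to 0.0909 and 0.0917). Neither passed with upper-quartile scaling (0.20, adjusted p = 0.0764, and 0.24, 0.0575) or with only controls 3 and 4 kept (0.26, adjusted p = 0.0802, and 0.22, 0.153). Zfand5, which encodes a ubiquitin-binding activator of the proteasome, was at 106, 108, 107 and 108 CPM in the Max KO libraries, all below the controls at 138, 135, 128 and 131 CPM. It fell by 0.31 on the log2 scale (SE 0.061, adjusted p = 0.00377, edgeR), and its call held in 8 of 8 fits that left out 1 library and with either pair of controls. The p97 cofactor genes Faf2, Nploc4 and Faf1 differed by 0.15, 0.11 and 0.12, none past the threshold. The remaining gene of the list, Ddi1, had 0 reads in every library.

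Of the 10 measured partners that carry no Psm symbol, 0 passed edgeR's threshold and 0 had an unadjusted p under 0.05, and the same held for the 6 ubiquitin and E1 genes. Over all tested genes, the shares were 23.1% and 35.5%. The medians of the 2 lists were 0.047 and -0.0043. DESeq2 and limma-voom called none of the genes of these lists either. Uchl5, a deubiquitinase bound to the proteasome, was at 106, 89.1, 96.8 and 100.2 CPM in the Max KO and 91.5, 96.4, 83.2 and 77.8 CPM in the control libraries (0.17, adjusted p = 0.185), and the ubiquitin ligase gene Ube3c was at 98.2, 105, 99.4 and 94.0 CPM in the Max KO and 101, 96.1, 79.4 and 84.5 CPM in the control libraries (0.14, 0.286). Both passed with only controls 3 and 4 kept (Uchl5 0.28, adjusted p = 0.04999, and Ube3c 0.27, 0.0419). AI314180, which encodes the proteasome scaffold ECM29, differed by 0.13 (adjusted p = 0.244). Akirin2, whose product carries proteasomes into the nucleus, was at 63.7, 67.4, 65.9 and 77.3 CPM in Max KO libraries 1 to 4 and at 106, 102, 64.2 and 60.1 CPM in controls 1 to 4. Controls 1 and 2 lay far above the Max KO values and controls 3 and 4 did not (-0.28, adjusted p = 0.290). With only controls 1 and 2 kept its difference was -0.60 (adjusted p = 6.05e-06). Of the ubiquitin and E1 genes, Uba1, the main activating enzyme, differed by 0.11 (adjusted p = 0.345) and Uba6, the other one, by 0.16 (0.474). The ubiquitin gene Ubb differed by -0.088 (0.596).

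**Figure D5:**
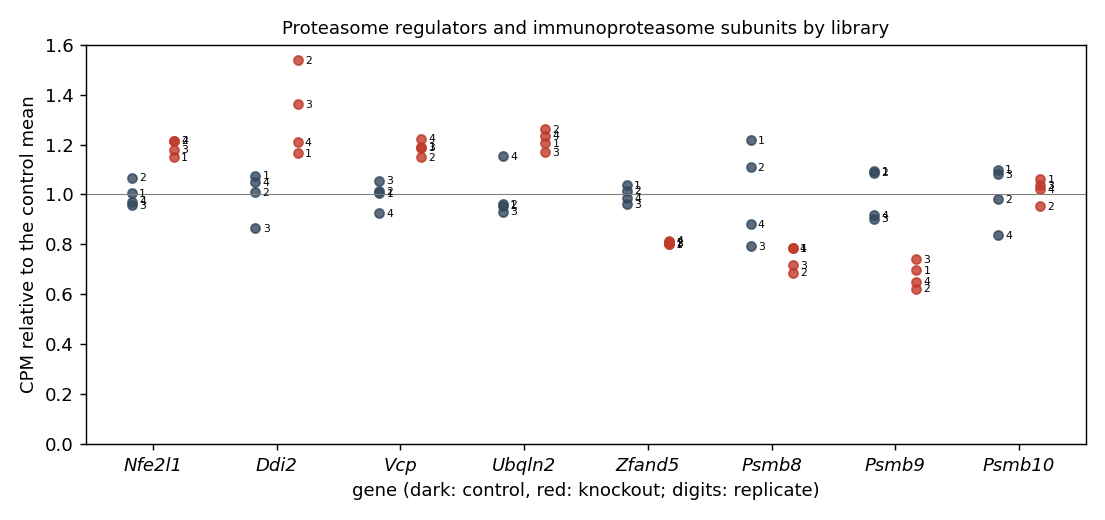
CPM of 5 called regulators and the 3 immunoproteasome genes in each library, divided by the control mean (y axis from 0), with replicate numbers. Nfe2l1, Ddi2, Vcp and Ubqln2 lie higher and Zfand5, Psmb8 and Psmb9 lower in all 4 Max KO libraries than in any control, whereas Psmb10 overlaps.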

How the data were processed

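Deposited counts of reads per gene symbol from 8 libraries were used unchanged. The submitters' processing notes name bcl2fastq 1.8.4, TopHat2 2.0.12, HTSeq 0.6.1 and the mm9 genome for how the authors made these counts. Annotation and strand setting: not given in the sources used here. Rows that name no gene stayed out of library sizes. Reads outside exons were 18.5% to 23.4% of those in genes, outside exons or ambiguous.

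The members, lists, tests and alternatives were chosen with earlier results of these data known. Genes were kept with filterByExpr, scaled with TMM and compared by edgeR 4.0.16 (R 4.3.3) with glmQLFit (robust) and glmQLFTest on group alone, and p-values were adjusted by Benjamini-Hochberg across the tested genes. The biological coefficient of variation was 12.1%. Intervals used the SE derived from fold change and F statistic. Per-library means used log2 CPM with a prior count of 2. Alternatives were DESeq2 1.42.0, limma-voom (limma 3.58.1), other scalings and filters, a fit with no robust step, a replicate block, each library left out and each pair of controls. The procedure was tested on simulated counts. Any member could be named, with values by library for called members, the 3 catalytic subunits and the largest fold change of each class; of each other list, called genes and up to 4 more with the smallest p were named. Some genes that this rule names are not reported here. Values by library of other members were added after they were seen. CPM used TMM-scaled library sizes for tested genes and plain totals otherwise. Transcript copies were searched with blastn 2.17.0.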

Additional observations from a re-analysis of the deposited data

Results flagged for a closer look

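In 5 of 104 sets of 4 libraries (44 members and 8 other genes, each in both groups), the library at 1 end lay apart from the other 3 by more than Dixon's 95% critical share of the range. Chance gives about 1 in 20 such sets. Psma7 (344.5 CPM, others 495 to 517) and Psmb1 (201 CPM, others 247 to 255) were low in control 4. Psmg1, a core assembly chaperone, was high in control 3 (20.4 CPM, others 14.0 to 14.9). Psmd4, a ubiquitin receptor of the base, was low in Max KO library 2 (137 CPM, others 154 to 155). The shuttle gene Ubqln2 was high in control 4 (299.8 CPM, others 242 to 249.7).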

How the results depend on the processing

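No member was called in the reported fit, so there was no member call that an alternative could turn around. Over 18 alternative fits of 44 members, 14 of 792 values became calls, and 108 changed sign with no call on either side. The number of members that rose was 0 in the reported fit, 1 with DESeq2 and 4 with only controls 1 and 2, and with 1 library left out it ran from 0 to 3 (3 without control 3). The number that fell was 0, and it was 4 with only controls 1 and 2 and ran from 0 to 2 over the fits without 1 library (2 without control 4). The count over all genes was 3084 and was 6068 with only controls 1 and 2. Upper-quartile scaling gave 1160 higher and 1965 lower genes, beside 1457 and 1627. With 1 library left out, the count over all genes ran from 2102 (without Max KO library 2) to 3743 (without control 4), that of higher genes from 963 to 1846 and that of lower genes from 1139 to 1929. In the lists of partners, transcription control, ubiquitin and shuttles, 5 genes were called, and 3 with upper-quartile scaling, 3 with the replicate block, 14 with only controls 1 and 2 and 1 to 7 over the fits without 1 library (1 without Max KO library 2 or 3, 2 without control 2, and 3 without Max KO library 1 or 4 or control 1). The cause was not tested.

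The members' median stayed between -0.035 and 0.075, and the difference of the core particle against regulatory particle between -0.097 and 0.023. That difference was -0.068 with summed CPM and -0.020 with base chaperones counted as regulatory. Libraries of equal replicate number showed no sign of pairing in their deviations from the group means. The correlations were -0.20, -0.012, 0.0020 and -0.11, and no Max KO library was closest to the control of its own number. An effect shared by number but weaker than the spread among the controls could go unseen in these correlations. The replicate block gave 2532 calls and 0 members. Under it Nfe2l1 (adjusted p = 0.0508) and Vcp (0.0802) were not past the threshold.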
